A study of Mus musculus with 24 samples.

Results

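The arcuate nucleus of the hypothalamus, which borders the ventromedial hypothalamus (VMH), makes the peptides named here. The set holds 8 genes that encode neuropeptides of its feeding, growth and reproductive neurons, namely Pomc, Agrp, Npy, Cartpt, Ghrh, Kiss1, Tac2 and Pdyn. They were read on the 12 VMH arrays of a mouse study that also holds brown fat, 24 arrays in all. A gene was taken where an array feature carried its symbol and no other, and 6 of the 8 met that rule, with 1 feature each, among 30142 genes with such a feature. The only feature for Kiss1 is shared with Golt1a, and Agrp was not analysed here.

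The mice were control mice and mice labelled Gfap-Bmal1 cKO, in which the clock gene Bmal1 is deleted conditionally under the direction of Gfap, a gene active in astrocytes. Both genotypes ate a standard diet (SD) or a high fat diet (HFD) for 16 weeks before the VMH was dissected from frozen brain sections of 100 µm and its total RNA was put on Affymetrix arrays. Each of the 4 groups of genotype and diet held 3 arrays. Age is not in the labels. They also do not state whether a group's 3 arrays stand for 3 animals. Each limma p-value sets a difference between groups against the spread of arrays within groups, and part of that spread may be technical. Dissection can take more or less of the neighbouring arcuate nucleus, and therefore each peptide gene is given array by array.

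Neurons that make proopiomelanocortin (Pomc), often together with the Cartpt peptide, restrain feeding, whereas neighbouring neurons that make neuropeptide Y (Npy) and Agrp promote it. Both kinds read leptin and insulin and act on shared melanocortin receptors, whereas neuropeptide Y acts on receptors of its own. A further kind joins kisspeptin, neurokinin B (from Tac2) and dynorphin (from Pdyn) in the control of reproduction, and Ghrh neurons drive growth hormone release from the pituitary. These genes lie in neurons and the label of the deletion names an astrocyte gene, so the comparisons ask whether peptide expression differed beside astrocytes with and without the clock gene, and between diets.

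The array values were log2 signals with VMH medians between 5.37 and 5.47, and correlations between arrays lay between 0.992 and 0.996. Bmal1, listed as Arntl, had a log2 signal of 8.49 to 9.22 on control arrays and 8.93 to 9.54 on the arrays labelled cKO, so it was not lower there (difference 0.40 ± 0.12 (SE), adjusted p = 0.250 by limma with Benjamini-Hochberg adjustment). Where its probes lie relative to the deleted part is not given in the sources used here. Some VMH neuron markers were well above the array medians on all 12 arrays. Log2 signals were 14.56 to 15.60 for the transcription factor Fezf1 and 15.36 to 15.96 for the glutamate transporter Slc17a6. The nuclear receptor Nr5a1 was at 7.53 to 8.47. Of 19 such markers with a feature, Lhx9 (4.49 to 5.12) and Cd40 (4.94 to 5.38) had means below the level at which genes were tested. Bdnf was close above that level at 5.63 to 5.88. The array labelled cKO HFD array 2 stood apart through genes of the anterior pituitary, which lies below the hypothalamus. Its log2 signals were 17.37 for prolactin (Prl), 13.74 for growth hormone (Gh), 12.38 for the shared glycoprotein hormone subunit Cga and 8.91 for the follicle-stimulating hormone subunit Fshb. The highest signals of these genes on the control arrays were 4.58, 5.47, 4.80 and 4.11. Of 11 pituitary markers 9 had a feature, 8 of these 9 were highest on that array, and their summed log2 signal was 39.24 to 41.59 on the 6 control arrays and 76.79 there.

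None of the 6 peptide genes passed the test for genotype or diet. The adjusted p from limma was above 0.05 for all 6 in each of 7 comparisons: cKO minus control on SD, on HFD and as the mean of both diets, then HFD minus SD in controls, in cKO and as the mean of both genotypes, and the interaction. The shares of the 16738 VMH genes past the threshold in these comparisons were 0.263%, 0.287%, 0.615%, 0%, 0.00597%, 0.0119% and 0%, so few genes passed it at all. At an unadjusted p under 0.05, the count of peptide genes was 0 in each genotype comparison, 1 for diet in controls (Tac2), 1 for diet in cKO (Pomc), 2 for diet averaged over genotypes (Tac2 and Pomc) and 0 for the interaction. Over all genes tested 6.67%, 11.1% and 11.2% lay under that limit for genotype on SD, on HFD and averaged, 8.38%, 9.51% and 12.6% for diet in controls, in cKO and averaged, and 5.64% for the interaction. Because the tissue was measured in bulk, fewer cells of a kind and less RNA per cell cannot be told apart in any of these values.

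**Figure D1:**
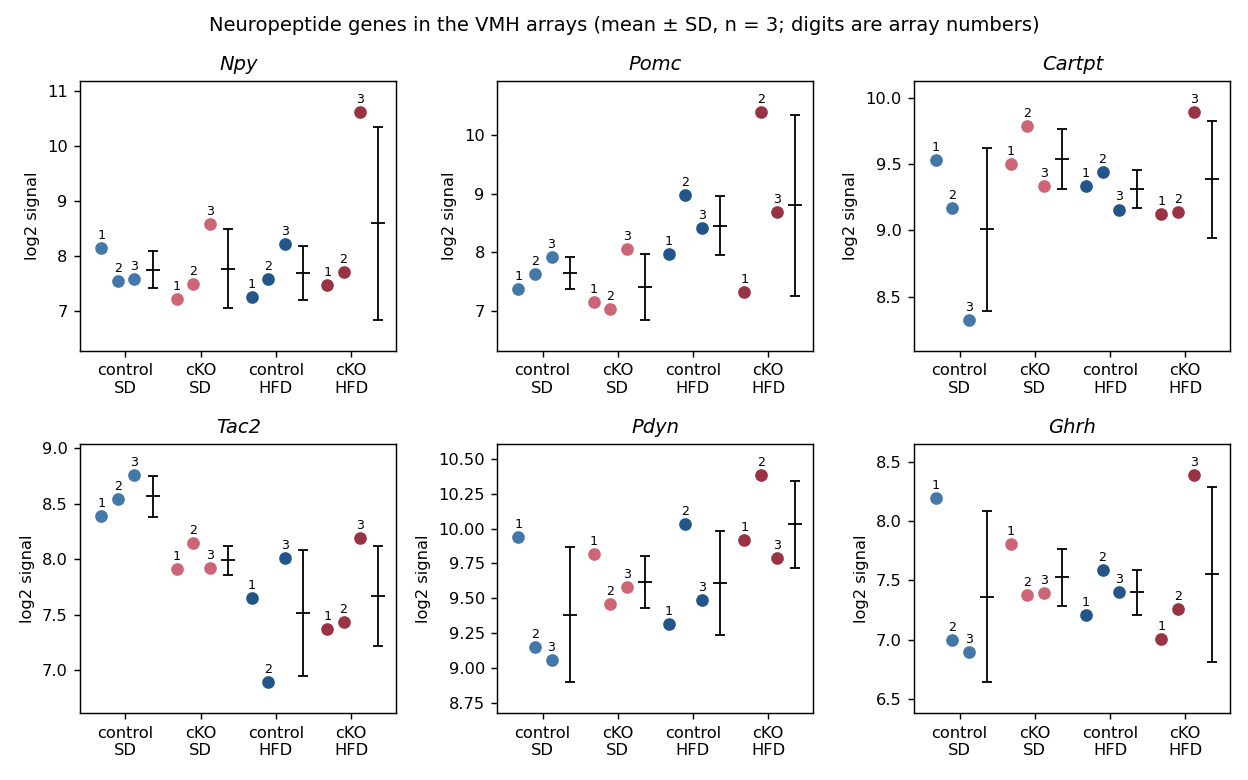
Log2 signal of the 6 peptide genes on each VMH array, in 4 groups of genotype and diet; digits are array numbers, and the bar beside each group is its mean ± SD (n = 3). The highest Npy point is cKO HFD array 3 at 10.61, the highest Pomc point is cKO HFD array 2 at 10.39, and the 3 control SD arrays of Tac2 lie above the arrays of every other group.

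The genes differed from array to array far more than most genes did. The SD of log2 signals within groups was 0.992 for Npy, 0.868 for Pomc, 0.538 for Ghrh, 0.403 for Cartpt, 0.382 for Tac2 and 0.357 for Pdyn, against a median of 0.120 over all genes tested. Npy and Pomc each exceeded 99.9% of genes in this spread, and Pdyn, the steadiest of the 6, exceeded 97.6%. The arrays at the extremes were not the same for all 6. Pomc and Pdyn were highest on cKO HFD array 2, Npy, Cartpt and Ghrh on cKO HFD array 3, and Tac2 on control SD array 3. Cartpt, Ghrh and Pdyn were lowest on control SD array 3. Oligodendrocyte markers stood apart on that array too. Of the 11 with a feature, 10 were highest there, such as Mobp at 14.52 against 13.70 on the next array. The share of all genes that were highest on it is not given here. Every comparison with the control SD group uses that array, and the part of tissue composition in those differences was not tested.

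Among the peptides that restrain feeding, Pomc encodes the precursor of alpha-melanocyte-stimulating hormone, and pituitary corticotrophs and melanotrophs also make it. Bmal1 binds the E-box CACGTG, so the 250 bases before the RefSeq start of the gene are shown, at chr12:3954695-3954944 on the plus strand of GRCm38.p6, with a TATA box (TATAAA) in capitals:
Pomc: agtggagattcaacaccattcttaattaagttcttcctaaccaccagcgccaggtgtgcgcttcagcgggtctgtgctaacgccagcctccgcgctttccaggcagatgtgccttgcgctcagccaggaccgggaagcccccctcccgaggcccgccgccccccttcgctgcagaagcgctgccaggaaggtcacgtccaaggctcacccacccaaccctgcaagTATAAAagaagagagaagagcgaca
Its log2 signal was 7.37, 7.63 and 7.92 on control SD arrays 1 to 3, and 7.14, 7.04 and 8.06 on the cKO SD arrays. On HFD it was 7.97, 8.97 and 8.42 on the control arrays and 7.32, 10.39 and 8.69 on the cKO arrays. All control HFD arrays lay above all control SD arrays, a separation upwards that 8.5% of all genes tested had, whereas the cKO diet groups overlapped through cKO HFD array 1. The group means ran from cKO SD (7.41 ± 0.56, SD, n = 3) through control SD (7.64 ± 0.28) and control HFD (8.45 ± 0.50) to cKO HFD (8.80 ± 1.54), and both neighbouring genotype pairs overlapped.

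The averaged diet difference of Pomc, HFD minus SD, was 1.10 ± 0.43 (SE; 95% interval 0.15 to 2.05) in log2 signal, with an unadjusted p of 0.028 and an adjusted p of 0.346 by limma. In controls alone the diet difference was 0.81 ± 0.61 (adjusted p = 0.764 by limma), and in cKO arrays it was 1.38 ± 0.61 (adjusted p = 0.515). Pomc was highest on the same array that held the pituitary transcripts. Without cKO HFD array 2 the averaged diet difference was 0.70 (95% interval 0.04 to 1.36; adjusted p = 0.515 by limma) and the difference in cKO arrays was 0.59 (95% interval -0.39 to 1.57). The value of the control difference, 0.81, does not use that array, but its error is pooled over all groups: without the array its SE was 0.39 (95% interval -0.06 to 1.69; adjusted p = 0.658 by limma). For genotype, the averaged difference of Pomc was 0.06 ± 0.43 with the array and -0.34 without it, and neither passed the test. Beyond these values, the part of pituitary tissue in the Pomc signal was not tested.

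**Figure D2:**
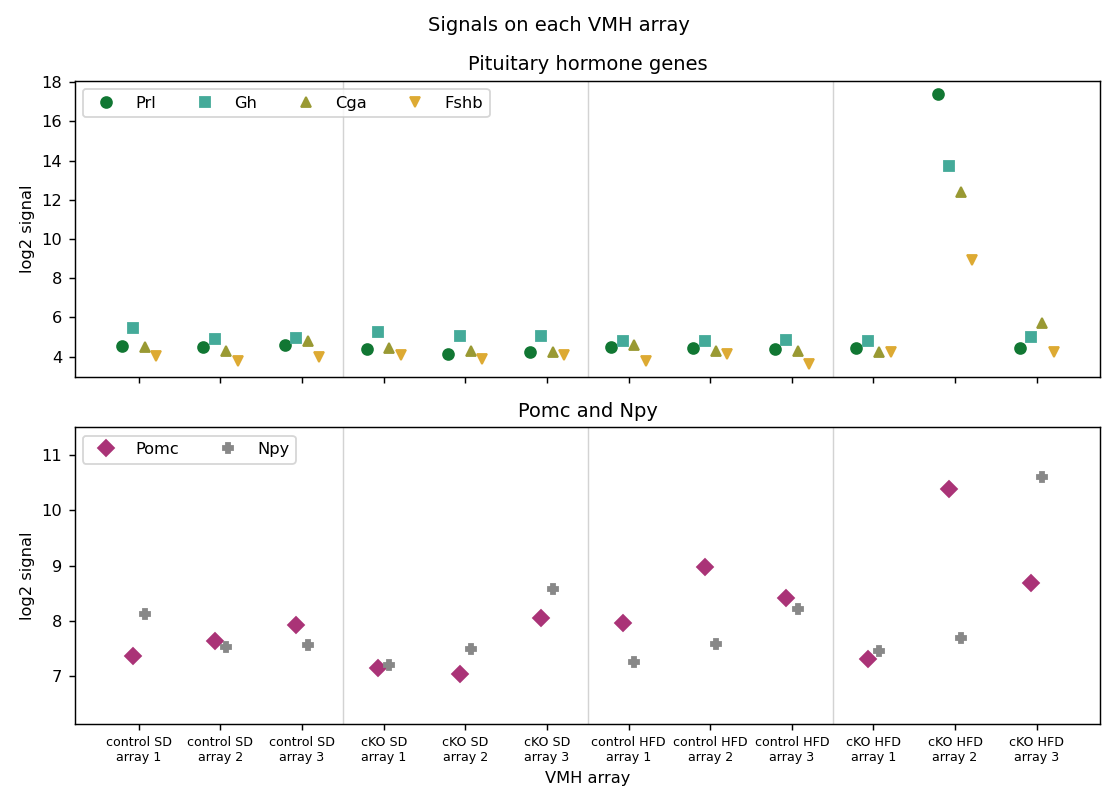
Log2 signals on each of the 12 VMH arrays, with 4 pituitary hormone genes in the upper panel and Pomc and Npy in the lower panel; each point is 1 array and vertical lines part the groups. Prl, Gh, Cga and Fshb reach 17.37, 13.74, 12.38 and 8.91 on cKO HFD array 2, where Pomc is at its highest, while Npy is highest on cKO HFD array 3.

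Tbx19, the transcription factor that marks pituitary Pomc cells, had a log2 signal of 4.96 on cKO HFD array 2 and 4.37 to 4.84 on the other 11 arrays. It lay below the level at which genes were tested, and so did Pax7, a factor of melanotrophs, at 4.78 on that array. Pcsk1, the convertase that makes the first cuts in the Pomc precursor, was among the 3 genes whose deviations from the group means were most like those of Pomc over the 12 arrays (Pearson r = 0.93), and r was 0.93 without cKO HFD array 2 too. The other two were Lrrc27 (r = 0.94, and 0.84 without that array) and Slc6a12, a betaine and GABA transporter (r = 0.91, and 0.92 without it). These r values describe arrays that share a dissection and were picked as the highest among 12047 genes.

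Cartpt encodes the CART peptide, which arcuate Pomc neurons and several other hypothalamic neurons release. Its log2 signal was 9.53, 9.17 and 8.33 on the control SD arrays and 9.50, 9.79 and 9.33 on the cKO SD arrays. With HFD it was 9.34, 9.44 and 9.16 in controls and 9.13, 9.14 and 9.89 in cKO. All 4 groups overlapped, and control SD array 3 was the lowest of the 12. Group means ran from 9.01 ± 0.62 (control SD) through 9.31 ± 0.14 (control HFD) and 9.39 ± 0.44 (cKO HFD) to 9.54 ± 0.23 (cKO SD). The genotype difference on SD was 0.53 ± 0.29 (SE; 95% interval -0.10 to 1.16; adjusted p = 0.818 by limma), and the averaged diet difference was 0.08 ± 0.20.

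Npy, the peptide of the neurons that promote feeding, gave the single most deviant reading. Its window of 250 bases lies at chr6:49822460-49822709 on the plus strand (RefSeq, GRCm38.p6), and none of the 3 motifs searched is in it:
Npy: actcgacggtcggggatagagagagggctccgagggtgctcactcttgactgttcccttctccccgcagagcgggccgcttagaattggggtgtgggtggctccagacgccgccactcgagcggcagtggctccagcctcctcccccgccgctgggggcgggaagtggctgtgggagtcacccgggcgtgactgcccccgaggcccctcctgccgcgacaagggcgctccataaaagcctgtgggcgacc
The log2 signal of Npy was 8.13, 7.54 and 7.57 on the control SD arrays and 7.21, 7.49 and 8.57 on the cKO SD arrays. The control HFD arrays read 7.25, 7.58 and 8.22, and the cKO HFD arrays 7.46, 7.70 and 10.61. The other 11 arrays lay between 7.21 and 8.57, all below cKO HFD array 3, and the groups overlapped. Group means were 7.68 ± 0.49 (control HFD), 7.75 ± 0.33 (control SD), 7.76 ± 0.72 (cKO SD) and 8.59 ± 1.75 (cKO HFD), and no neighbours in that order were apart beyond their spread.

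The genotype difference of Npy on HFD was 0.91 ± 0.70 in log2 signal (SE; 95% interval -0.63 to 2.44; adjusted p = 0.666 by limma), and without cKO HFD array 3 it was -0.10. The diet difference in cKO arrays was 0.83 ± 0.70 (adjusted p = 0.753 by limma), and -0.18 without that array. That array turned the sign of the averaged differences as well, which were 0.46 for genotype and 0.39 for diet with it and -0.05 and -0.12 without it. Of the pituitary genes, Prl (4.44) and Gh (5.01) were within the range of the control arrays there, whereas Cga was at 5.74 and Tshb, the thyrotropin subunit, at 5.55. Apart from cKO HFD array 2, the remaining arrays lay at 4.23 to 4.80 for Cga and 4.33 to 4.98 for Tshb, so both were above those arrays on cKO HFD array 3.

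Some other arcuate markers were also high on cKO HFD array 3. Of 20 such markers 18 had a feature, and 6 of these 18 were highest there. Such a share was not limited to arcuate genes: 5 of 12 general neuron markers and 4 of 15 peptide genes of the wider hypothalamus were highest on the same array. Sst is on both the arcuate and the wider peptide list and was counted in each. The share of all genes that were highest on that array is not given here. Crabp1, a retinoic acid binding protein found in a group of arcuate neurons, had a log2 signal of 6.78 on it and 5.79 to 6.09 on the other arrays. Gal, which encodes galanin, had 8.39 there but 8.47 on control SD array 1. Tbx3, a transcription factor that maintains the identity of arcuate peptide neurons, was at 6.34 there and at 5.59 to 6.04 elsewhere. The summed log2 signal of the 18 markers was 140.97 to 148.59 on control SD arrays, 145.12 to 146.99 on cKO SD, 140.97 to 144.37 on control HFD and 141.09 to 149.48 on cKO HFD. Cck, a peptide gene from outside the arcuate list, was also highest on the array (6.29). Whether the piece dissected for that array held more of the arcuate nucleus was not tested. By likeness of within-group deviations, the nearest genes to Npy were Ccnk (r = 0.93), Crabp1 (r = 0.93) and Arc (r = 0.91), a neuronal activity gene whose name does not refer to the nucleus. They were picked as the highest among 12047 genes. Npy and Crabp1 were both highest on cKO HFD array 3, and r without that array is not given here.

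**Figure D3:**
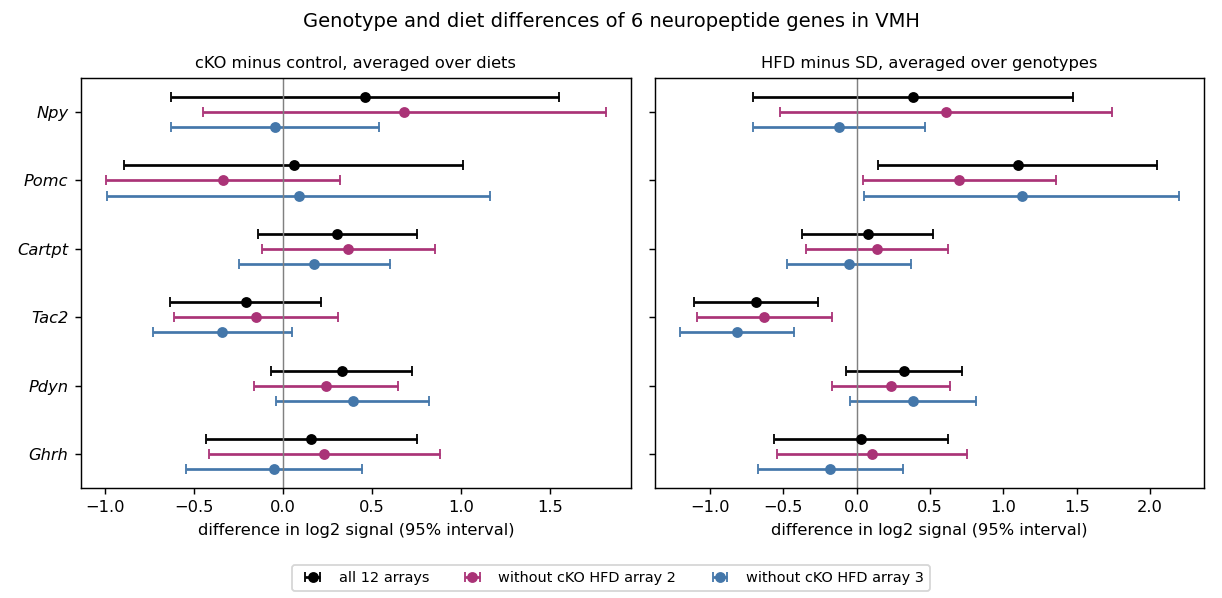
Differences in log2 signal with 95% intervals for the 6 peptide genes, cKO minus control at left and HFD minus SD at right; black uses all 12 arrays, and the colours leave out cKO HFD array 2 or array 3. The averaged diet difference of Tac2 is -0.69 with all arrays and stays below 0 in both reduced fits, whereas the averaged Npy differences change sign without cKO HFD array 3.

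Tac2 encodes neurokinin B, which starts the pulses of the reproductive neurons of the arcuate nucleus. Its window of 250 bases (chr10:127724228-127724477, plus strand, RefSeq, GRCm38.p6) also lacks the letters of the 3 motifs and is shown because Tac2 had the lowest p of the 6 genes in the averaged diet comparison:
Tac2: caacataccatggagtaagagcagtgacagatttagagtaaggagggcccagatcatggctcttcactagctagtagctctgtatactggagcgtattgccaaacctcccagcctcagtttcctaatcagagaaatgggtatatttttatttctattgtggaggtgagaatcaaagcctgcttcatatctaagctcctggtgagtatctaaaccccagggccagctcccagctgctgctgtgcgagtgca
On SD the log2 signal of Tac2 was 8.39, 8.55 and 8.76 in controls and 7.91, 8.14 and 7.92 in cKO. The HFD arrays read 7.65, 6.89 and 8.01 in controls and 7.37, 7.44 and 8.19 in cKO. The control SD group therefore lay above every array of the other 3 groups, and those 3 overlapped one another. Means ran in the order control SD (8.57 ± 0.19), cKO SD (7.99 ± 0.13), cKO HFD (7.67 ± 0.45) and control HFD (7.52 ± 0.57).

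In controls the diet difference of Tac2, HFD minus SD, was -1.05 ± 0.27 (SE; 95% interval -1.65 to -0.45), with an unadjusted p of 0.003 and an adjusted p of 0.399 by limma. Such a downward separation of the control diet groups was present in 3.92% of genes, and Tac2 was at rank 113 of 16738 by p. In cKO arrays the difference was -0.33 ± 0.27 (adjusted p = 0.753 by limma). The averaged diet difference was -0.69 ± 0.19 (95% interval -1.11 to -0.26; unadjusted p = 0.004, adjusted p = 0.230 by limma). On SD, Tac2 was lower on all 3 cKO arrays than on any control array, which 2.99% of genes were, with a difference of -0.57 ± 0.27 (95% interval -1.17 to 0.03; adjusted p = 0.770 by limma). Both of these comparisons use the same control SD arrays. The interaction was 0.72 ± 0.38 (95% interval -0.12 to 1.57; adjusted p = 0.880 by limma), so the diet difference was not shown to depend on genotype. Leaving out single arrays kept the control diet difference of Tac2 between -1.30 and -0.74, and its adjusted p was 0.330 to 0.781 over all alternatives.

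Pdyn encodes prodynorphin, which the same reproductive neurons use to end their pulses and which VMH neurons also make. It had log2 signals of 9.94, 9.15 and 9.05 on control SD arrays and 9.82, 9.46 and 9.58 on cKO SD arrays. On HFD the signals were 9.31, 10.03 and 9.49 in controls and 9.92, 10.39 and 9.79 in cKO. Every neighbouring pair of groups overlapped, although the means of the cKO groups (9.62 ± 0.19 on SD, 10.03 ± 0.31 on HFD) stood above those of the controls on the same diet (9.38 ± 0.48 and 9.61 ± 0.38). The averaged genotype difference was 0.33 ± 0.18 (SE; 95% interval -0.07 to 0.73; adjusted p = 0.525 by limma), and on HFD it was 0.42 ± 0.25 (adjusted p = 0.567). The averaged diet difference was 0.32 ± 0.18 (95% interval -0.08 to 0.72; adjusted p = 0.506 by limma). The genes most like Pdyn in their within-group deviations were Cdc20b (r = 0.98), Megf6 (r = 0.95) and the VMH transcription factor Fezf1 (r = 0.95). They were picked as the highest among 12047 genes. Cdc20b was dim, at 5.33 to 5.74, near the level at which genes were tested.

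Ghrh, the hormone that releases growth hormone, had log2 signals of 8.19, 6.99 and 6.90 on control SD arrays and 7.80, 7.38 and 7.40 on cKO SD arrays. It read 7.21, 7.59 and 7.41 on control HFD arrays and 7.01, 7.26 and 8.39 on cKO HFD arrays. One array in each of control SD and cKO HFD was more than 1 above the others of its group, and all 4 groups overlapped. Means were within 7.36 ± 0.72 (control SD) and 7.55 ± 0.74 (cKO HFD). The averaged differences were 0.16 ± 0.27 (SE) for genotype and 0.03 ± 0.27 for diet, with adjusted p of 0.866 and 0.981 by limma. Its nearest genes by within-group deviations were Cngb1 (r = 0.96), the insulin receptor substrate Irs4 (r = 0.96) and the kinase gene Camk2a (r = 0.95). These too were the highest among 12047 genes.

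As a set, the 6 genes had a median averaged genotype difference of 0.23 in log2 signal, with 5 of 6 above 0, beside a median of 0.02 over all genes tested. For the averaged diet difference the median was 0.20, with 5 of 6 above 0 and a median of 0.02 over all genes. The exception was Tac2 in both. Without cKO HFD array 3 the medians of the 6 genes were 0.02 for genotype, with 3 of 6 above 0, and -0.09 for diet, with 2 of 6 above 0, so their size and the sign for diet rested on that array. Without cKO HFD array 2 they were 0.24 and 0.19, with 4 and 5 of 6 above 0. The summed log2 signal of the 6 genes was 48.53 to 51.55 on control SD arrays, 49.29 to 50.86 on cKO SD, 48.73 to 50.70 on control HFD and 48.20 to 55.56 on cKO HFD, so the cKO HFD arrays held both the lowest and the highest sum.

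The next comparison asks whether the 6 genes were high on the same arrays within a group, since dissection can vary. The 15 pairs were compared by the correlation of their deviations from group means over 12 arrays, with an exact two-sided permutation test of arrays within groups (1296 arrangements, smallest p 0.000772). Pearson r was above 0 for 10 of 15 pairs, with a median of 0.16, and 0 pairs passed after Benjamini-Hochberg adjustment over the 15 (smallest adjusted p 0.340). The highest r of Ghrh were with Cartpt (r = 0.767, exact p = 0.067) and with Npy (r = 0.679, exact p = 0.068). Tac2 and Pdyn, which one kind of arcuate neuron makes together, had opposite deviations (r = -0.672, exact p = 0.041, adjusted p = 0.340; Spearman's rho = -0.769, exact p = 0.017), and r was -0.441 without the 2 arrays farthest from the median of Tac2. Pomc and Npy had r = 0.115, and 0.755 without cKO HFD array 2 (exact p = 0.164). Without cKO HFD array 3, Ghrh and Pdyn had r = 0.903 (exact p = 0.00231, adjusted p = 0.0347), the one pair to pass then.

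**Figure D4:**
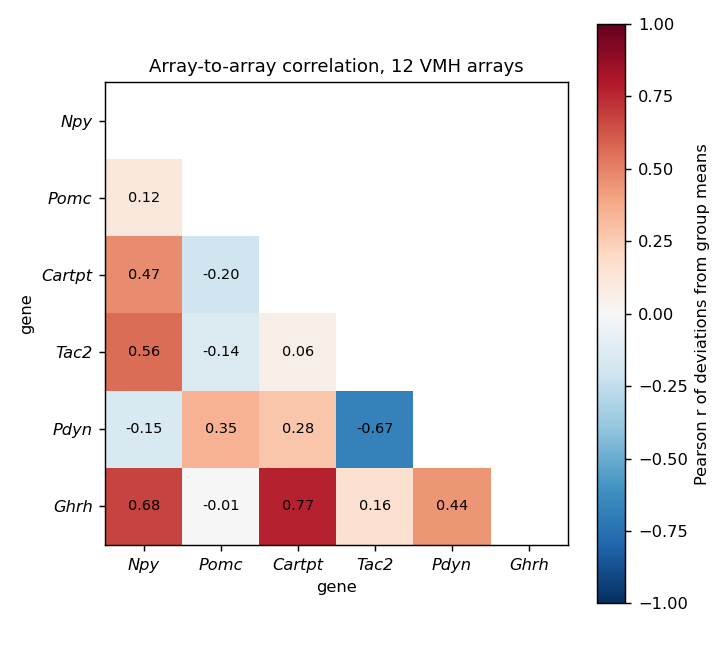
Pearson r between deviations of 2 peptide genes from their group means over the 12 VMH arrays, for the 15 pairs (red above 0, blue below 0). Cartpt and Ghrh have the highest value at 0.77, and Tac2 and Pdyn the lowest at -0.67.

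The genes that act with these peptides showed no call either. At most 0.615% of all genes tested passed in any comparison, so 0 calls in short lists says little about them. Lists of convertases and other processing enzymes (9 of 10 tested), receptors (14 of 17), transcription factors of arcuate neurons (11 of 14) and restraint of leptin and insulin signals (5 of 6) had 0 genes past the threshold in each of the 7 limma comparisons. For the averaged diet comparison 1, 4, 3 and 1 of their genes had an unadjusted p under 0.05 by limma, beside 12.6% of all genes tested. Among receptors, Npy1r, through which neuropeptide Y acts, had an averaged diet difference of 0.61 ± 0.12 (SE) in log2 signal, with all 6 HFD arrays above the 6 SD arrays, a separation that 0.705% of genes had, and an adjusted p of 0.171 by limma. The incretin receptor Glp1r had a diet difference of 1.02 ± 0.30 (adjusted p = 0.246) and the serotonin receptor Htr2c, which excites Pomc neurons, -0.40 (adjusted p = 0.260 by limma). Stat3, which carries the leptin signal to the nucleus, differed by 0.43 ± 0.10 (adjusted p = 0.176), and Foxo1, which insulin restrains, by -0.19 (adjusted p = 0.277 by limma). Pam, which amidates peptides such as alpha-melanocyte-stimulating hormone, differed by 0.25 (adjusted p = 0.206), Pcsk1 by 0.15 (adjusted p = 0.494), and the phosphatase Ptpn2 by 0.19 (adjusted p = 0.225 by limma). For genotype, the averaged differences were 0.17 for the carboxypeptidase Cpe (adjusted p = 0.270 by limma) and 0.31 for Irs2 (adjusted p = 0.340). They were 0.22 for the ghrelin receptor Ghsr (adjusted p = 0.452 by limma), 0.27 for the melanocortin receptor Mc3r (0.532) and -0.24 for Htr2c (0.499). Bsx, a factor of Npy and Agrp neurons, differed by 0.28 (adjusted p = 0.423 by limma). In these 4 lists 5 of 9, 11 of 14, 9 of 11 and 3 of 5 genes were above 0 for averaged genotype.

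Markers of the surrounding tissue were read on the same arrays. Of the other arcuate markers 15 of 20 were tested and 0 passed. Of VMH neuron markers 17 of 20 were tested and 0 passed. Tac1 is on both of these lists, and Sox14 is on the VMH list and that of arcuate transcription factors. Each was counted in both of its lists. At most 0.615% of all genes passed in any comparison. In the averaged diet comparison of limma 8 of the 17 had an unadjusted p under 0.05, beside 12.6% of all genes tested. The summed log2 signal of 19 VMH markers was 168.99 to 170.87 on control SD arrays, 170.17 to 171.67 on cKO SD, 171.40 to 175.75 on control HFD and 174.07 to 175.87 on cKO HFD. Those HFD arrays thus lay above the control SD arrays in VMH markers, as Pomc did in controls, and opposite to Tac2. Other markers fell with Tac2 in the averaged diet comparison. Among general neuron markers, of which 8 of 12 were above 0, Gad1 differed by -0.59, Gad2 by -0.68 and Slc32a1 by -0.58. Among peptide genes of the wider hypothalamus, of which 3 of 9 were above 0, Hcrt differed by -1.17 and Trh by -1.58. None of these passed the test. Peptide genes of the wider hypothalamus varied widely, from 6.81 to 10.43 for Hcrt, 7.45 to 12.60 for Trh and 11.94 to 16.54 for Pmch over the 12 arrays. The part of the dissected piece in the diet differences of Pomc and Tac2 was not tested. With the mean of 9 peptide genes of the wider hypothalamus as a covariate, the averaged diet difference was 0.90 for Pomc and -0.56 for Tac2, and neither passed the test. Trh, Sst and Gal, which are in that mean, are also on the list of other arcuate markers. The covariate therefore does not stand for nuclei outside the arcuate nucleus alone.

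The RefSeq promoter table of GRCm38.p6 held 9 windows of 250 bases for 7 of the 8 genes. The E-box CACGTG was in 0 of the 9, against 6.02% of all 32851 windows, and TATAAA was in 2 of the 9, those of Pomc and of 1 Ghrh start, against 12.4%. The STAT motif TTCNNNGAA, of the kind that Stat3 binds, was in 1 window, that of 1 Pdyn start, against 7.02%. Both strands were searched and no motif overlapped another. A missing match says only that these letters are not in this window.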

How the data were processed

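Total RNA of dissected VMH was measured on 12 arrays in 4 groups, and brown fat on 12 more, which served only as a background level. The authors deposited log2 signals in 1 column an array, per the file headers. The submitters' processing notes list Affymetrix Expression Console 1.1.1 and PLIER 2.0 without saying what each did. How arrays were normalized, and the build, is not given in the sources used here. Of 72688 features, 6732 were controls and 30604 had exactly 1 symbol; the brightest stood for a gene. Genes entered the test where their VMH mean reached the median of 5.39 over non-control features (16738 genes), and all 6 peptide genes did.

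limma 3.58.1 (R 4.3.3) fitted 4 group means with equal weights and no block. Two-sided p-values were adjusted by Benjamini-Hochberg over all genes within a comparison, with a threshold of 0.05. Pairs were tested with exact permutations (Python 3.11.15, numpy 2.4.6). The 28 pairs planned for 8 genes became 15, since 6 had a feature. Scripts were tested on simulated data. Peptide genes, lists and tests were chosen with earlier results of these data known. From each list up to 4 genes by smallest p, and genes past the threshold, were open to be named, and 3 genes by likeness to each peptide gene. Alternatives were quantile normalization, a pseudocount of 16, no filter, the mean of all features, a robust prior, array weights, the groups compared alone, a replicate block, other hypothalamic peptides as a covariate and leaving out each array. The number of arrays limits precision.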

Additional observations from a re-analysis of the deposited data

Results flagged for a closer look

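Genes of the anterior pituitary stood apart on 1 array of the VMH set, cKO HFD array 2, against every other array. Prl had a log2 signal of 17.37 there, Gh 13.74, Cga 12.38 and Fshb 8.91. None of these genes belongs to the measurement of arcuate peptides, and all were above their level on the control arrays. Pomc and Pdyn were at their highest on the same array, with log2 signals of 10.39 and 10.39, while Npy was at 7.70 and Tac2 at 7.44.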

How the results depend on the processing

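No peptide gene passed the threshold in any of the 7 comparisons under any alternative run. Of the differences the text names, 8 changed sign in 1 or more of the fits that left out an array. Their ranges over those fits were -0.34 to 0.43 for Pomc, -0.046 to 0.74 for Npy and -0.052 to 0.37 for Ghrh (averaged genotype difference), -0.12 to 0.67 for Npy, -0.094 to 0.21 for Cartpt and -0.18 to 0.24 for Ghrh (averaged diet difference), -0.10 to 1.47 for Npy by genotype on HFD and -0.18 to 1.40 for Npy by diet in cKO. The averaged diet difference kept its sign in all fits for Tac2 (adjusted p 0.178 to 0.448) and Pomc (0.206 to 0.572). The count of pairs past the threshold was 0 to 1 without single arrays and 1 with a replicate block (Npy and Cartpt, r = 0.978). Same-numbered arrays of different groups correlated at -0.34 to 0.28 in their deviations from group means, and 3 of 18 values were above 0.1. Arrays with different numbers correlated at -0.25 to 0.34, and 8 of 36 values were above 0.1. Whether an array number marks a shared litter, day or batch is not in the labels and was not tested. The replicate block changed no call for a single peptide gene.

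Over all genes, calls on SD by genotype went from 44 to 10 with only the groups compared, genotype calls on HFD from 48 to 117 and averaged ones from 103 to 203 with array weights, diet calls in cKO from 1 to 22 and averaged diet calls from 2 to 17 with array weights; the cause was not tested. Peptide genes have 1 feature each, so the mean of all features moved none of them. Fitting only the groups compared applies to no averaged comparison or interaction, which use all 4. On its dimmest VMH array each peptide gene was above 61.0% (Tac2) to 91.8% (Pdyn) of 5222 negative control features. By the median array Ghrh was the dimmest, above 71.8% of them.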

Other observations

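The same features were dim in brown fat. Log2 signals over its 12 arrays were 3.83 to 4.31 for Pomc, 3.68 to 4.35 for Npy, 3.58 to 3.88 for Tac2, 3.58 to 3.80 for Pdyn, 4.06 to 4.41 for Ghrh and 5.09 to 5.43 for Cartpt. The lowest VMH signal of each gene was above its highest brown fat signal, although the 2 tissues differ in array medians and were not tested against each other.

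Markers of other brain cells tested by limma were 11 oligodendrocyte, 7 microglia, 7 endothelial, 7 tanycyte and ependymal and 3 choroid plexus markers. None passed the averaged genotype or diet comparison, which 0.615% and 0.0119% of all genes passed. For averaged genotype, 3, 1, 0, 3 and 1 of them had an unadjusted p under 0.05, beside 11.2% of all genes tested. Of the 11 oligodendrocyte markers 3 were above 0 for averaged genotype (median -0.51) and 2 for averaged diet (median -0.26). In controls 0 of 11 were above 0 for diet (median -0.35), and on SD 1 for genotype (median -0.51). On control SD array 3, which these comparisons use, 10 of the 11 were highest. Of the 7 tanycyte and ependymal markers 7 were above 0 for averaged genotype (median 0.26). The median over all genes tested was 0.02 in each of these comparisons. Stmn2, a general neuron gene, rose by 0.70 on SD, 0.89 on HFD and 0.80 averaged in cKO arrays (adjusted p = 1.9e-05 for the average by limma), the only 1 of 12 general neuron markers past the threshold; 3 of the 12 were above 0 on SD and 6 of 12 on average (median 0.003). Aqp4, the astrocyte water channel, rose by 0.48 averaged over diets (adjusted p = 0.0493 by limma), the only 1 of 10 astrocyte markers to pass. Of the 10, 5 were above 0 and 6 had an unadjusted p under 0.05, beside 11.2% of all genes tested. Averaged genotype differences that did not pass were 1.31 for Gfap (adjusted p = 0.129 by limma), -0.23 for Slc1a2 (adjusted p = 0.0852) and -0.32 for Aldh1l1 (adjusted p = 0.169).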
